A study of Sus scrofa with 21 samples.

Results

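Arterial material collected with a microbrush was compared with pieces of aorta in 13 of the 21 RNA sequencing libraries of a pig (Sus scrofa) series. The libraries were chosen by their labels: 9 carried the device label of a 3D-printed microbrush and 4 the tissue label of aorta. Another brush library, microbrush 4, was left out because it had counts for 3831 genes, under a minimum of 5000. The series concerned a device for sampling the endothelium, the cell layer that lines blood vessels, and surgically removed aorta served as its positive control. The other libraries, used here only to set levels beside the comparison, came from bare Nitinol wires (4 libraries, the negative control) and whole blood (3 libraries).

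The 9 brush libraries came from peripheral arteries of the kidney (5 libraries) and the liver (4 libraries), in pig 243K (5 libraries) and pig 248K (4 libraries). All 4 aorta libraries came from 1 other animal, pig 237053. The labels give no strain, age or sex, and no treatment for any group. Pig, artery, and way of sampling therefore change together between the groups, and what each contributes to a difference cannot be told apart. Libraries of 1 pig are not separate animals, so each p-value below measures the spread between libraries only.

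An artery has a thin endothelial lining, a middle layer of smooth muscle and elastic fibres, and an outer layer of fibroblasts and collagen. The aorta is an elastic artery, with more elastic sheets in its wall than the muscular arteries of the organs. Surgical pieces of wall hold all layers that were cut, while a brush reaches the wall from the inside, through blood.

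The depth and the make-up of the brush libraries varied widely. Total counts ran from 1144949 to 10188551 in the brush libraries and from 1603209 to 3033013 in the aorta libraries. Genes with a count numbered 12651 to 20001 in the brush libraries and 19357 to 20028 in the aorta libraries, and the brush libraries with the fewest were microbrush 6 (12651), 9 (15011) and 5 (16499). At a common depth of 1000000 counts, 16730 ± 3045 genes were detected in the brush libraries (SD, n = 9) and 18840 ± 169 in the aorta libraries (SD, n = 4; exact two-sided permutation p = 0.194). The 2 identifiers with the most counts, which have no symbol, took 15.9% ± 14.5 of the counts in brush libraries and 6.82% ± 1.52 in aorta libraries. Spearman correlations over genes between 2 brush libraries ran from 0.316 to 0.912, those between a brush and an aorta library from 0.478 to 0.902, and those between 2 aorta libraries from 0.836 to 0.899. The SD of a gene's level over libraries, on a log2(CPM + 1) scale where CPM is counts per 1000000 after scaling, had a median of 1.21 in brush libraries and 0.44 in aorta libraries. It was larger in brush libraries for 15936 of 16769 genes (95%).

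Of 16769 genes tested, 36 passed edgeR's quasi-likelihood test at an adjusted p under 0.05, which is 0.215%. Of these, 9 were higher on the brush (0.0537%) and 27 lower (0.161%). The split depended on the tool and the libraries: of 338 genes called by DESeq2, 219 were higher (1.31% of all tested) and the others lower (0.71%), and limma with voom and quality weights called 186 higher (1.11%) and 470 lower (2.8%). With microbrush 4 included edgeR called 10 higher and 11 lower, and in a common fit of 19 libraries 10 higher and 12 lower. At an unadjusted p under 0.05, 787 genes were higher on the brush (4.69%) and 398 lower (2.37%). The 9 brush libraries all lay above the 4 aorta libraries for 98 genes (0.584%) and all below them for 242 genes (1.44%). All 36 called genes were among these. Among the 27 genes that fell were 4 of the glucocorticoid-responsive list (CEBPD, ZBTB16, KLF15, PER1), the lipid carrier APOE and the proteoglycan VCAN, and 8 had no symbol. Of the 9 that rose, the 2 with a symbol, KDM5D and EIF1AY, are genes of the Y chromosome. No smooth muscle or endothelial marker passed. A gene that missed the threshold is not shown to be equal between the groups.

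**Figure D1:**
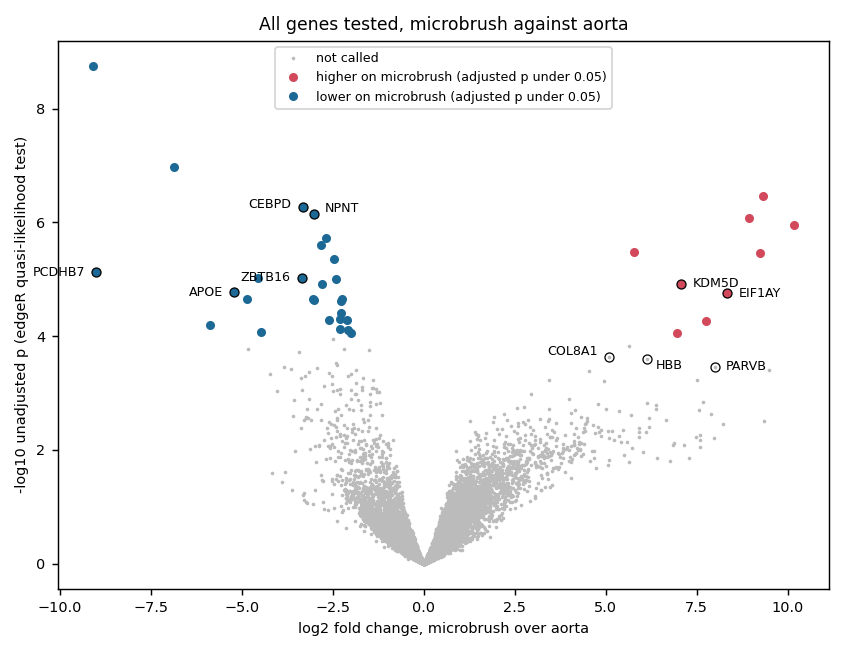
Each point is 1 of the 16769 genes tested, placed by its log2 fold change (microbrush over aorta, horizontal axis) and the -log10 of its unadjusted p (vertical axis); blue points are the 27 genes lower and red points the 9 genes higher on the brush. The genes named APOE, CEBPD, ZBTB16, NPNT and PCDHB7 lie among the lower ones, KDM5D and EIF1AY among the higher ones, and COL8A1, HBB and PARVB did not pass.

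The count of 36 depended on which libraries entered. It was 17 without aorta 1, 23 without aorta 2, 21 without aorta 3, 17 without aorta 4, 21 without microbrush 2 and 64 without microbrush 6. With the brush libraries of pig 243K alone it was 3, and with those of pig 248K alone it was 134. With kidney brushes alone it was 88 and with liver brushes alone 3. The 338 genes called by DESeq2 and the 656 called by voom each held all 36. Within the brush libraries 0 genes passed edgeR's test between kidney and liver (773 at an unadjusted p under 0.05) and 0 between pigs 243K and 248K (295 at an unadjusted p under 0.05).

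Glucocorticoids enter cells and activate a receptor that binds DNA and raises a set of target genes, among them several transcription factors. Of 20 genes of this response that were tested, 4 fell on the brush, 0 rose, and 7 had all brush libraries below all aorta libraries. For comparison, 0.161% of all genes fell and 1.44% lay wholly below. The list was chosen with earlier results of these data known, and CEBPD and ZBTB16 were named for this comparison in advance. These shares are therefore a description and not an independent test. The median log2 fold change of the 20 was -0.28, against -0.04 for all genes. In bulk RNA, fewer cells of a type and less RNA per cell cannot be told apart, here and for every gene below.

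CEBPD, a transcription factor that glucocorticoids and inflammation induce, lies on chromosome 4 from 79872863 to 79874481 (Sscrofa11.1). Its level on the brush ran from 4.00 to 20.2 CPM with a median of 8.46 CPM. In aorta the 4 libraries had 94.8, 56.4, 107.5 and 148 CPM. The lowest aorta library was above the highest brush library, and the brushes of both organs and both pigs overlapped with each other. The wires had 6.01 to 17.4 CPM and the blood libraries 14.3 and 5.68 CPM, so they too lay below aorta. CEBPD averaged 10.1 ± 5.59 CPM over brush libraries (SD, n = 9), against 101.8 ± 37.9 CPM over aorta libraries (SD, n = 4), with a log2 fold change of -3.33 (SE 0.41, adjusted p = 0.00228).

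ZBTB16, a zinc finger repressor known as PLZF and a strongly glucocorticoid-induced gene in human cells, lies on chromosome 9 from 41639536 to 41839254. The brush libraries had 10.6 to 101.9 CPM with a median of 48.6 CPM, and the aorta libraries had 484, 451, 731 and 732 CPM. The groups did not overlap, and microbrush 6 was the lowest of the brushes. The wires had 10.0 to 76.7 CPM and the blood libraries 16.6 and 20.0 CPM. Its mean was 58.4 ± 32.4 CPM over brush libraries (SD, n = 9), against 599.5 ± 152.8 CPM over aorta libraries (SD, n = 4), with a log2 fold change of -3.36 (SE 0.53, adjusted p = 0.0103).

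KLF15, a Krüppel-like factor of metabolic genes, had 4.90 to 21.0 CPM on the brush with a median of 10.4 CPM. In aorta it had 47.6, 40.7, 55.2 and 78.0 CPM. PER1, a repressor of the circadian clock, had 39.0 to 126 CPM on the brush with a median of 77.8 CPM, and 265, 225, 396 and 335 CPM in aorta. In both genes the groups were apart. Log2 fold changes were -2.26 for KLF15 (SE 0.40, adjusted p = 0.0259) and -2.00 for PER1 (SE 0.39, adjusted p = 0.0418).

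FKBP5, a chaperone partner of the glucocorticoid receptor, did not pass, at 31.0 CPM on the brush and 142 CPM in aorta on average (log2 fold change -2.19, adjusted p = 0.0709). All its brush libraries were nonetheless below all aorta libraries, as were those of KLF9 (-1.42, adjusted p = 0.19) and BCL6 (-1.41, adjusted p = 0.154), both transcription factors. Other targets showed no such separation. DUSP1, a phosphatase of MAP kinases, had a log2 fold change of 0.94, SGK1, a kinase, 0.72, and TXNIP, a thioredoxin inhibitor, 0.33, each with overlapping groups. Summed over the 20 genes, levels were 573 to 1401 CPM on the brush and 1571 to 2489 CPM in aorta. The wires had sums of 590 to 1159 CPM and blood 740 to 1147 CPM. Of these sums, ZBTB16 alone gave 10.6 to 101.9 CPM on the brush and 451 to 732 CPM in aorta. The separation of the sums leans on this gene, which was named for the comparison in advance.

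The calls on CEBPD and ZBTB16 held with each of the 13 libraries left out in turn, with log2 fold changes of -3.53 to -3.10 for CEBPD and -3.50 to -3.21 for ZBTB16. Both calls were lost with pig 243K alone, and that on ZBTB16 also with liver brushes alone. KLF15 missed the threshold without any 1 of the 4 aorta libraries, without microbrush 2 and without microbrush 7, at adjusted p of 0.0607 to 0.218. PER1 missed it in 11 of the 13 such runs, all but those without microbrush 5 and without microbrush 6, at adjusted p of 0.0599 to 0.212. With the brushes of pig 243K alone 0 of the list passed by edgeR, and with those of pig 248K alone 4 did. Against the same aorta, CEBPD had a log2 fold change of -3.31 in pig 243K (adjusted p = 0.0565) and -3.35 in pig 248K (adjusted p = 0.018). DESeq2 called 7 members lower, against 0.71% of all genes, and voom called 8 lower and 1 higher, against 2.8% and 1.11% of all genes.

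**Figure D2:**
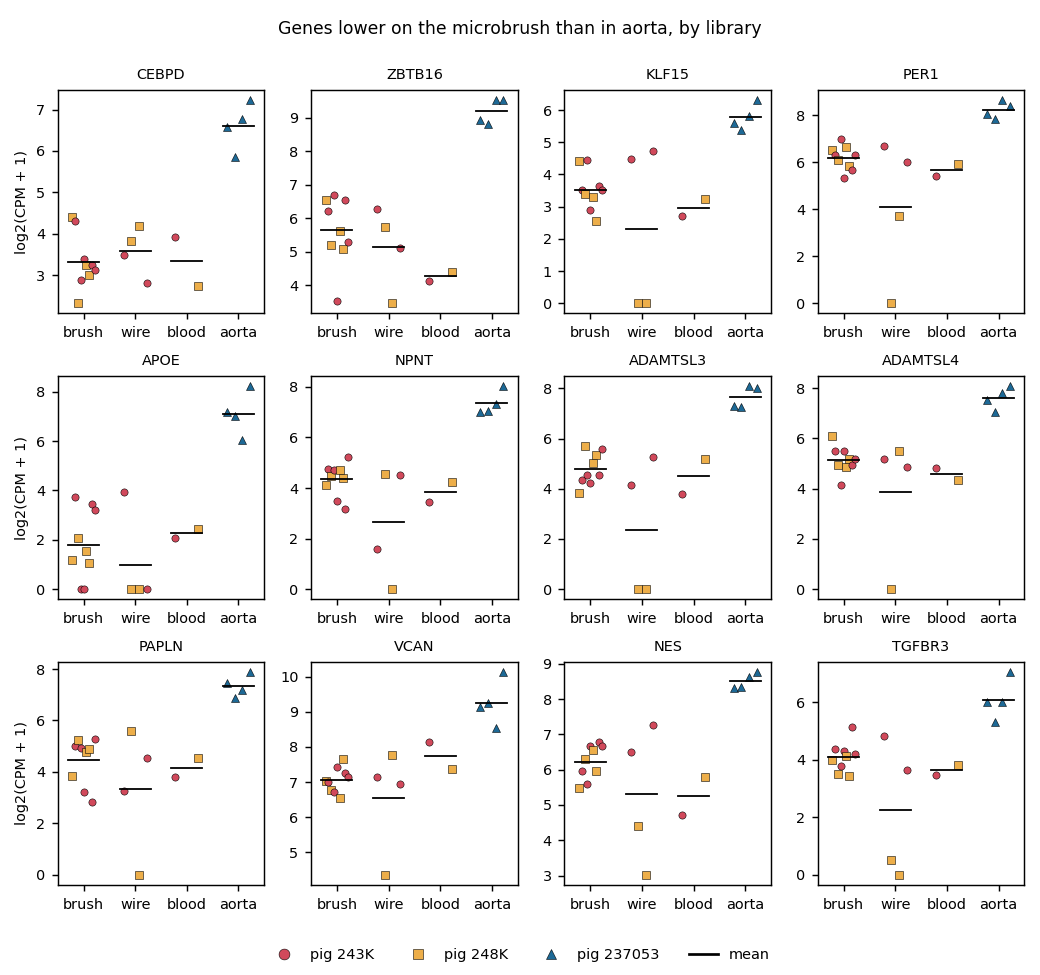
Levels of 12 genes lower on the brush, as log2(CPM + 1) on the vertical axis, in 9 brush, 4 wire, 2 blood and 4 aorta libraries; colour and shape mark the pig and bars the group means. In every panel the 9 brush libraries lie below the 4 aorta libraries, and the blood libraries do as well.

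APOE encodes apolipoprotein E, a lipid carrier made by macrophages, hepatocytes and smooth muscle, and lies on chromosome 6 from 51373113 to 51375333. On the brush it ran from 0 to 12.4 CPM with a median of 1.88 CPM, and microbrush 5 and 6 had none. The aorta libraries had 143, 127.5, 64.6 and 299.6 CPM. The 2 groups were far apart, and 3 of the 4 wires had none either. Means were 4.20 ± 4.68 CPM over brush libraries (SD, n = 9), against 159 ± 99.9 CPM over aorta libraries (SD, n = 4), a log2 fold change of -5.21 (SE 0.85, adjusted p = 0.0148). Without aorta 4 these became -4.70 and 0.0835, short of the threshold. The call on APOE was also lost with pig 243K alone and with liver brushes alone.

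Of 20 macrophage and lipid genes tested, APOE was the 1 that fell, 0 rose, and the list median was -0.24. The macrophage receptor TREM2 (19.4 CPM on the brush and 22.9 CPM in aorta), the scavenger receptor CD163 (25.2 CPM on the brush and 39.9 CPM in aorta) and the complement subunit C1QB (20.8 CPM on the brush and 39.7 CPM in aorta) had overlapping groups. LYZ, lysozyme, had a log2 fold change of 5.48 (adjusted p = 0.403) and also overlapped. Markers of the liver, the organ around some of the brushed arteries, had summed levels of 70.8 to 359.6 CPM on the brush and 174 to 267 CPM in aorta, and 0 of 11 tested passed by edgeR, DESeq2, voom or at an unadjusted p under 0.05.

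NPNT, ADAMTSL3, ADAMTSL4, PAPLN and VCAN, of the lower genes, encode secreted matrix proteins, a grouping made after the values were seen. The matrix list had 1 of 23 genes lower. NPNT, nephronectin, a ligand of the integrin alpha 8 beta 1, had 7.94 to 36.4 CPM on the brush with a median of 21.2 CPM, against 126.5, 131, 160.4 and 261 CPM in aorta. The lowest aorta library lay well above the highest brush library, which gave a log2 fold change of -3.02 (SE 0.38, adjusted p = 0.00235). ITGA8, the alpha 8 chain that binds it, had all brushes below all aorta libraries too, but did not pass (284 CPM on the brush and 1165 CPM in aorta on average, log2 fold change -2.03, adjusted p = 0.674).

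ADAMTSL4, which binds fibrillin microfibrils, had 16.9 to 68.0 CPM on the brush with a median of 35.0 CPM, and 185.5, 133, 227 and 271 CPM in aorta. Its relative ADAMTSL3 averaged 29.4 ± 13.9 CPM over brush libraries (SD, n = 9), against 209 ± 64.8 CPM over aorta libraries (SD, n = 4). Log2 fold changes were -2.47 for ADAMTSL4 (SE 0.36, adjusted p = 0.00628) and -2.82 for ADAMTSL3 (SE 0.40, adjusted p = 0.00462). PAPLN, the matrix protein papilin, averaged 24.3 ± 11.99 CPM over brush libraries and 168 ± 51.7 CPM over aorta libraries (log2 fold change -2.79, adjusted p = 0.0115). The calls on NPNT, ADAMTSL3 and ADAMTSL4 held with each library left out in turn. They were lost with pig 243K alone, with liver brushes alone, with microbrush 4 included and in the common fit of 19 libraries, and those on ADAMTSL3 and ADAMTSL4 also with pig 248K alone (adjusted p = 0.0525 and 0.0599). PAPLN had an adjusted p of 0.0714 without aorta 4. Its call was also lost with pig 243K alone, with liver brushes alone, with microbrush 4 included and in the common fit.

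VCAN, the proteoglycan versican, was the 1 gene of 23 in the collagen and matrix list that fell. It had 92.1 to 202 CPM on the brush with a median of 129 CPM, and 562, 608, 370.5 and 1128 CPM in aorta, a log2 fold change of -2.29 (SE 0.43, adjusted p = 0.039). It missed the threshold in 9 of 13 runs with 1 library left out, those without any 1 of the aorta libraries or without microbrush 1, 2, 5, 7 or 9, at adjusted p of 0.0549 to 0.238. The fibrillar collagen COL1A1 averaged 5990 CPM over brush libraries and 1673 CPM over aorta libraries, and its brush libraries spanned 173 to 28060 CPM, on both sides of aorta.

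The median of the 23 genes was 0.30 by edgeR and -0.87 by voom. In 3 of the 23 matrix genes all brushes were above all aorta libraries without passing the test. Of all genes, 0.584% lay wholly above aorta. COL8A1, a short-chain collagen of vessel walls, had 36.5 to 1441 CPM on the brush with a median of 258 CPM, and 12.1, 16.7, 8.36 and 10.4 CPM in aorta (log2 fold change 5.08, SE 1.07, adjusted p = 0.0911). THBS1, thrombospondin 1, a matrix protein also stored in platelets, had 100.1 to 4423 CPM on the brush and 22.8 to 36.1 CPM in aorta (4.94, SE 1.16, adjusted p = 0.155). TNC, tenascin C, had 52.3 to 1290 CPM on the brush and 27.9 to 46.8 CPM in aorta (2.80, adjusted p = 0.518). COL8A1 passed without microbrush 6 (adjusted p = 0.0421) and without microbrush 8 (adjusted p = 0.0473), and THBS1 without microbrush 6 (adjusted p = 0.0289). Of 27 alternatives, COL8A1 passed in 7 and THBS1 in 6, DESeq2 and voom among them for both. COL8A1 was at 0 to 76.4 CPM on the wires, while THBS1 was at 1100 to 4853 CPM there and at 569 and 180 CPM in blood.

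The remaining lower genes with a symbol had other roles. PLXNA4, a semaphorin receptor, averaged 37.3 ± 29.6 CPM over brush libraries and 299.9 ± 105.8 CPM over aorta libraries (log2 fold change -3.01, adjusted p = 0.0159). PREX2, an activator of the GTPase Rac, averaged 16.3 ± 10.6 CPM over brush libraries and 100.3 ± 40.9 CPM over aorta libraries (-2.61, adjusted p = 0.03). DHX37, an RNA helicase of ribosome assembly, averaged 56.9 ± 32.0 CPM over brush libraries and 469 ± 365 CPM over aorta libraries (-3.04, adjusted p = 0.0159), and NHSL2 16.8 ± 6.40 CPM over brush libraries and 89.0 ± 20.9 CPM over aorta libraries (-2.41, adjusted p = 0.0103). The SDs rest on 9 brush and 4 aorta libraries, and none of the 4 genes overlapped between the groups. Chosen after their values were seen, NES, the intermediate filament nestin (-2.25), TGFBR3, the co-receptor betaglycan (-2.10), the olfactomedin gene OLFM1 (-2.30) and USP53 (-2.29) complete the 19 lower genes with a symbol. Of these 8 genes, each missed the threshold without at least 1 library: 2 runs of 13 for NHSL2, 3 for DHX37 and PLXNA4, 4 for USP53, 5 for NES, 7 for PREX2, 8 for TGFBR3 and 9 for OLFM1, with adjusted p up to 0.372. The libraries concerned were the 4 aorta libraries and, among the brushes, microbrush 1, 2, 3, 5, 7, 8 and 10.

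PCDHB7, a protocadherin of a cluster of similar neighbouring genes, was at 0 in all 9 brush libraries, against 16.2, 30.1, 27.3 and 17.5 CPM in aorta. Against a floor of 3 counts over the brush libraries, it was at least 203-fold lower on the brush (adjusted p = 0.00982, and 0.051 without aorta 3). The call was also lost with pig 243K alone, with liver brushes alone and in the common fit of 19 libraries. The wire library of the liver of pig 243K held 22.5 CPM, and the other wires and both blood libraries none. Assignment of reads among protocadherin copies is uncertain. The identifier ENSSSCG00000035241, without a symbol, behaved alike, with 1 count in all brush libraries together and 44.2, 19.8, 86.4 and 35.5 CPM in aorta (log2 fold change -9.10, adjusted p = 2.96e-05). The ratio of its scaled totals, aorta over brush, was 1052, with a 95% counting interval of 188 to 41630. It was at 0 in every wire and blood library. ENSSSCG00000021003, also unnamed, averaged 13.2 ± 11.9 CPM over brush libraries (SD, n = 9), against 1564 ± 1286 CPM over aorta libraries (SD, n = 4; log2 fold change -6.88, adjusted p = 0.000895). It was at 14.4 to 24.5 CPM on the wires and at 10.5 and 3.21 CPM in blood.

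Among the genes that rose, KDM5D, a histone demethylase, and EIF1AY, a translation initiation factor, are encoded on the mammalian Y chromosome and expressed in most male tissues. EIF1AY lies on chromosome Y from 9687350 to 9704489. EIF1AY had 4.39 to 38.5 CPM on the brush with a median of 10.8 CPM and was at 0 in all 4 aorta libraries. KDM5D had 1.83 to 39.0 CPM on the brush with a median of 11.98 CPM, and 0, 0.26, 0 and 0 CPM in aorta, 1 count in all. Both transcripts were thus found in all 9 brush libraries, from both pigs.

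EIF1AY was at least 61.3-fold higher on the brush against a floor of 3 counts over the aorta libraries (adjusted p = 0.0148), and the scaled totals of KDM5D gave a ratio of 212 with a 95% counting interval of 37.9 to 8393 (adjusted p = 0.0115). These intervals and floors cover counting error only. Both genes have a copy on the X chromosome, and how reads were shared between the copies is not given in the sources used here. EIF1AY missed the threshold without aorta 1, 2 or 4 and KDM5D without any 1 of the 4 aorta libraries, at adjusted p of 0.0527 to 0.0707. Both also missed it with microbrush 4 included, with pig 243K alone and with liver brushes alone. In blood of pigs 243K and 248K, EIF1AY was at 93.4 and 31.8 CPM and KDM5D at 34.9 and 13.6 CPM. All 4 wires had EIF1AY (0.44 to 51.6 CPM) and 3 had KDM5D. The sex of the pigs is not in the labels.

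Of the 7 other higher genes, all without a symbol, 4 were at 0 in all aorta libraries. ENSSSCG00000026430 had 23.2 to 222 CPM on the brush and 1 count in aorta, a ratio of scaled totals of 1171 (95% counting interval 210.1 to 46280, adjusted p = 0.00189), and blood had 429 and 156 CPM. ENSSSCG00000027046 had at least 12.8 CPM in each brush library, with a median of 42.5 CPM, and 0 in aorta, at least 216-fold higher (adjusted p = 0.0027), with 215 and 74.8 CPM in blood. For all 9 higher genes both blood libraries of pigs 243K and 248K exceeded every aorta library, and for 6 all 4 wires did. Brush and aorta libraries share no pig, so pig and sampling method cannot be told apart for these genes.

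**Figure D3:**
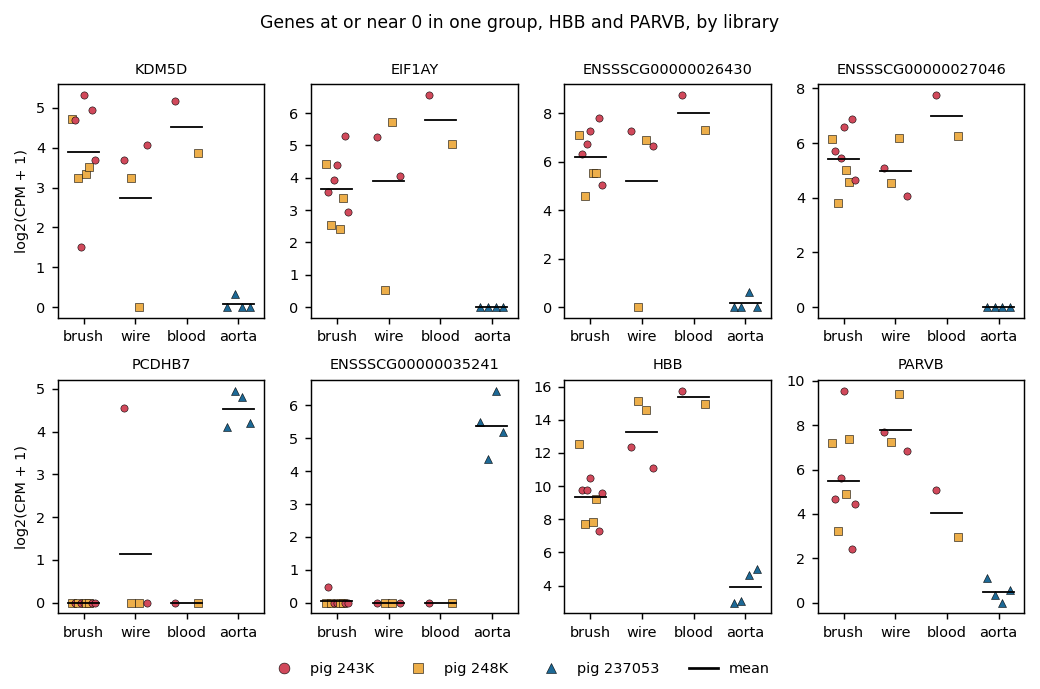
Levels of 8 genes as log2(CPM + 1) on the vertical axis in 9 brush, 4 wire, 2 blood and 4 aorta libraries, with pigs by colour and shape and group means as bars. KDM5D, EIF1AY and 2 unnamed identifiers lie at or near 0 in the aorta of pig 237053 and above it in brush and blood libraries of both other pigs, PCDHB7 and ENSSSCG00000035241 show the opposite, and HBB and PARVB spread over the brushes.

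Red blood cells carry haemoglobin, whose beta chain is encoded by HBB (chromosome 9, 4800683 to 4801941). HBB had 157 to 5844 CPM on the brush with a median of 751 CPM, and 6.80, 7.47, 23.9 and 31.2 CPM in aorta. Every brush library was above every aorta library, and the wires at 2139 to 35670 CPM and blood at 55410 and 31570 CPM were higher than most brushes. The spread between brushes was wide, and the log2 fold change of 6.13 (SE 1.30) had an adjusted p of 0.0966. It passed without microbrush 1, the brush with the most HBB (5.22, adjusted p = 0.0367). HBB passed in 6 of 26 alternatives, this one included, among them DESeq2 (adjusted p = 7.22e-12) and voom (adjusted p = 3.12e-05). Reads of other beta-globin genes may have been assigned to it, and this was not tested.

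The 4 haemoglobin genes found, HBB, HBM, HBZ and HBQ1, took 0.0974% ± 0.097 of counts in brush libraries (SD, n = 9) and 0.00193% ± 0.00106 in aorta libraries (SD, n = 4). The shares ran from 0.0129% to 0.328% on the brush and from 0.000852% to 0.00298% in aorta without overlap. The highest, microbrush 1, had a Wilson 95% interval of 0.322% to 0.333%, and the lowest, microbrush 9, one of 0.0121% to 0.0137%. The difference of 0.0954 percentage points had an exact two-sided permutation p of 0.0559 over 715 splits, where the smallest p these allow is 0.0014. The same permutation p was 0.0182 without microbrush 1 (difference 0.0666), 0.0485 without microbrush 3, 0.0404 without microbrush 7 and 0.0384 without microbrush 9. It stayed above 0.05 in the other runs with 1 library left out. It was 0.114 without any 1 of the aorta libraries, 0.0808 without microbrush 2 or 10, 0.0586 without microbrush 5 or 8 and 0.0505 without microbrush 6. On the log10 scale, chosen after seeing the data, the difference was 1.59 and reached that smallest p. Haemoglobin genes were found by symbol, so an identifier without one could not enter the share. ENSSSCG00000007978, unnamed and among the 9 higher genes, had 471 to 14710 CPM on the brush and 12.5 to 52.0 CPM in aorta. Blood had 121200 and 67610 CPM of it. Its call was lost in 8 of 13 runs with 1 library left out. What it encodes was not tested.

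Of 16 erythroid genes tested 0 passed by edgeR, 3 had an unadjusted p under 0.05, and DESeq2 and voom each called 3 higher. HBM, an alpha-like globin, had 9.84 to 146 CPM on the brush and 0 to 2.84 CPM in aorta (log2 fold change 5.65, adjusted p = 0.0663). HBM passed in 11 of 26 alternatives, among them DESeq2, voom and the runs without microbrush 6 (adjusted p = 0.0489) and without microbrush 9 (adjusted p = 0.0363). ALAS2, the erythroid enzyme that begins haem production, had 8.46 to 227.5 CPM on the brush and 1.80 to 5.57 CPM in aorta (4.55, adjusted p = 0.131). The other 13 overlapped between the groups, and the list median was 0.10. Of the 16 genes, 10 had positive fold changes. Among those with negative ones were the red cell membrane genes SLC4A1 (-0.26), ANK1 (-0.28) and SPTB (-0.73), chosen after their values were seen.

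PARVB, beta-parvin, links integrin-linked kinase to actin at the sites where cells hold the matrix, and lies on chromosome 5 from 4906667 to 5015494. On the brush it ran from 4.31 to 753 CPM with a median of 28.8 CPM, and in aorta it had 1.13, 0.26, 0 and 0.47 CPM. The groups did not overlap, and microbrush 6 stood far above the other brushes. The wires had 114.2 to 687 CPM and blood 32.9 and 6.91 CPM. Its log2 fold change of 7.99 (SE 1.76) had an adjusted p of 0.122, and without microbrush 6 it passed (6.75, adjusted p = 0.034). PARVB passed in 8 of 26 alternatives, this one included. Among them were DESeq2 (adjusted p = 5.25e-08), voom (adjusted p = 0.00282), microbrush 4 included, pig 248K alone, kidney brushes alone and the common fit of 19 libraries.

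Of 20 genes of the parvin and focal adhesion list 0 passed by edgeR, with 3 higher and 2 lower at an unadjusted p under 0.05. By DESeq2 there were 2 higher and 1 lower, and by voom 2 in each direction. The list median was 0.80 by edgeR and -0.20 by voom. The other parvins had smaller fold changes, -0.73 for PARVA and 0.92 for PARVG, and ILK, the kinase itself, had 1.32. ITGA5, a fibronectin receptor chain, had all brushes below all aorta libraries (99.7 CPM on the brush and 332 CPM in aorta, log2 fold change -1.73, adjusted p = 0.294). FERMT3, the kindlin of blood cells, had 6.90 to 2475 CPM on the brush and 18.0 to 25.99 CPM in aorta (4.19, adjusted p = 0.483).

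Platelet genes had the highest median of the 30 lists of cell types, structures and responses, 4.32, and 11 of 12 had positive fold changes, but 0 passed by edgeR. At an unadjusted p under 0.05 there were 8 higher, while DESeq2 called 7 and voom 6. F13A1, the A chain of clotting factor XIII, had 10.0 to 14590 CPM on the brush and 14.7 to 34.5 CPM in aorta (log2 fold change 6.64, adjusted p = 0.35). TUBB1, the platelet tubulin, had 6.39 to 8356 CPM on the brush and 10.4 to 31.7 CPM in aorta (5.91, adjusted p = 0.385). PPBP, a platelet chemokine precursor, had 4.14 to 3490 CPM on the brush and 10.2 to 17.3 CPM in aorta (5.24, adjusted p = 0.439). Summed over the list, microbrush 6 had 30830 CPM and microbrush 9 had 51.6 CPM, on the 2 sides of the aorta range of 106.3 to 152.9 CPM, and the wires had 4473 to 28750 CPM. Without microbrush 6 the list median was 3.09.

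Endothelial genes did not pass either. Of 22 core endothelial genes 17 had positive fold changes, 7 of them at an unadjusted p under 0.05, and the median was 1.26. Their count by edgeR was 0, DESeq2 called 1 higher, and voom 1 in each direction. PECAM1, an adhesion protein of endothelium and platelets, had 53.3 to 1419 CPM on the brush with a median of 83.7 CPM, and 49.1, 57.9, 32.3 and 50.6 CPM in aorta (log2 fold change 2.58, adjusted p = 0.527). The groups met at microbrush 2, and microbrush 6 was the highest. ESAM, a junction protein of endothelium and platelets, had 13.6 to 71.2 CPM on the brush and 5.20 to 18.9 CPM in aorta (1.53, adjusted p = 0.439). CDH5, the cadherin of endothelial junctions, had a median of 24.8 CPM on the brush and ranged from 13.1 to 28.7 CPM in aorta (1.11, adjusted p = 0.911). TM4SF1, a tetraspanin-like membrane protein, was the 1 member with all brushes above all aorta libraries (56.9 to 246 CPM on the brush and 37.3 to 46.1 CPM in aorta; 1.46, adjusted p = 0.439).

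The summed level of the core endothelial genes was 611 to 5624 CPM on the brush and 517 to 604 CPM in aorta, with no overlap. Microbrush 6 held the highest sum and the brushes without it ran up to 1684 CPM. Wires had 502 to 2177 CPM and blood 656 and 594 CPM, so 1 wire lay below and 3 above the aorta range, and of the blood libraries 1 lay within and 1 above it. Without microbrush 6 the list median was 0.64, and without the 3 brush libraries with the fewest genes it was 0.36.

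Smooth muscle genes mark the arterial wall and were read as a check on the labels of both groups. MYH11, the smooth muscle myosin, had 734 to 78670 CPM on the brush with a median of 16870 CPM, and 19190 to 41540 CPM in aorta, so the brushes spanned the aorta range. Over 27 contractile genes the median log2 fold change was 0.17 and 0 passed by edgeR, 3 had an unadjusted p under 0.05, DESeq2 called 1 in each direction and voom 2 lower. DES, the muscle filament desmin, had 23.4 to 1699 CPM on the brush and 60.97 to 101.4 CPM in aorta (3.09, adjusted p = 0.545). ACTA2, smooth muscle actin, averaged 3955 CPM over brush libraries and 2424 CPM over aorta libraries (log2 fold change 0.71, SE 1.24). Summed, the list had 5283 to 168800 CPM on the brush and 45750 to 95560 CPM in aorta. The brushes lay on both sides of aorta, with microbrush 3, 8 and 10 at 6397, 10740 and 5283 CPM. Microbrush 6 summed to 59000 CPM, yet it had 737 CPM of MYH11, 177 CPM of ACTA2 and 26.9 CPM of DES. The wires summed to 8875 to 40080 CPM with MYH11 at 45.7 to 964 CPM. The sum is therefore not a measure of smooth muscle alone. The list median was -1.05 by voom and -0.61 without the 3 brush libraries with the fewest genes, the opposite sign.

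Elastic fibre genes, whose products give the aorta its recoil, had a median of -0.12 over 18 genes. It ran from -0.59 to 0.26 with 1 library left out and was -1.12 by voom, so it changed sign. Of these 0 passed by edgeR, 1 had an unadjusted p under 0.05, and DESeq2 called 2 and voom 3 lower. ELN, elastin itself, had 182 to 12440 CPM on the brush with a median of 1727 CPM, and 899.7, 636, 1076 and 1982 CPM in aorta (log2 fold change 1.63, adjusted p = 0.897). FBLN5, fibulin 5, averaged 49.0 CPM over brush libraries and 212 CPM over aorta libraries (-2.10, adjusted p = 0.385). Basement membrane genes had a median of 0.46 over 15 genes, with 0 called by edgeR, DESeq2 or voom and 0 at an unadjusted p under 0.05, and by voom the median was -0.69.

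Outer-layer fibroblast genes had a median of -0.41 over 14 genes, with 0 called by edgeR and DESeq2, 2 called lower by voom and 2 at an unadjusted p under 0.05. SFRP1, a Wnt inhibitor, averaged 20.6 CPM over brush libraries and 146 CPM over aorta libraries (log2 fold change -2.82, adjusted p = 0.35), and DPT, dermatopontin, 16.2 CPM on the brush and 60.3 CPM in aorta (-1.90, adjusted p = 0.576). In both genes all brushes lay below all aorta libraries.

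**Figure D4:**
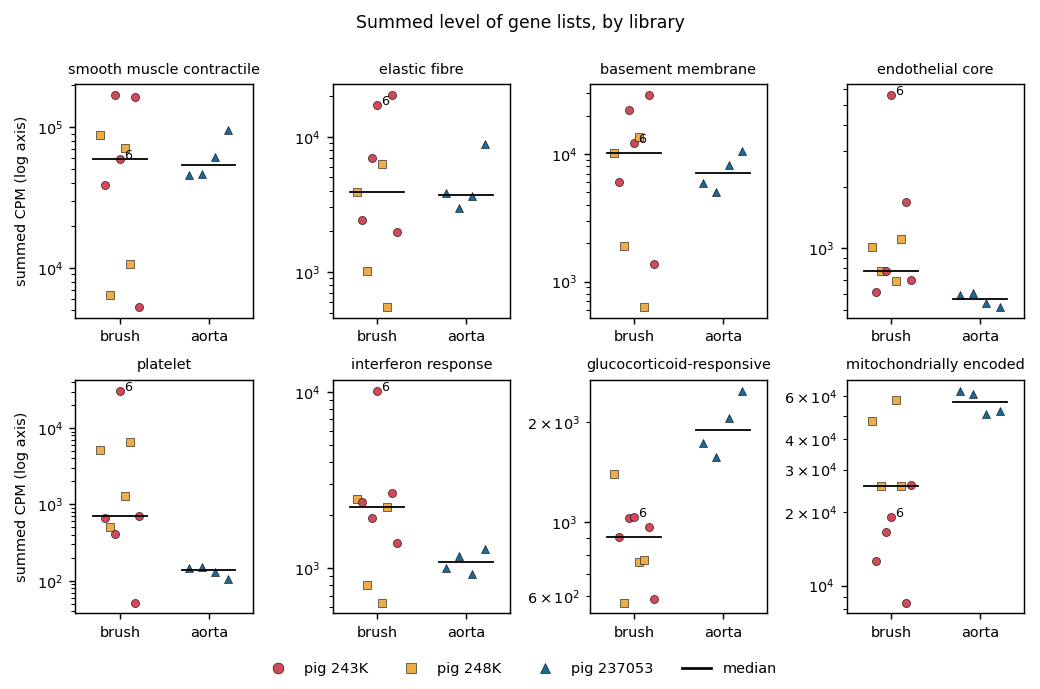
Summed CPM of 8 gene lists (logarithmic vertical axes) in 9 brush and 4 aorta libraries, with pigs by colour and shape, bars at the medians and the digit 6 beside microbrush 6. The glucocorticoid-responsive sum is the one of the 8 where the brushes lie wholly below aorta, and ZBTB16 alone gave 451 to 732 CPM of it in aorta. The endothelial sum is the one where the brushes lie wholly above. The smooth muscle sums of the brushes run from 5283 to 168800 CPM around the aorta range. Microbrush 6 lies within that range although it had 737 CPM of MYH11.

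Markers of other cells that a brush or a piece of wall could hold were read in the same way, and 0 passed by edgeR in any of these lists. Leukocyte lists had medians of 1.31 over 11 neutrophil genes, 0.78 over 11 B cell genes and 0.15 over 15 T and NK cell genes, with 2, 2 and 1 genes higher at an unadjusted p under 0.05. DESeq2 called 2, 1 and 1 of them higher, and voom 0, 0 and 1. Over all genes, 4.69% were higher at an unadjusted p under 0.05, 1.31% by DESeq2 and 1.11% by voom. PTPRC, the leukocyte surface phosphatase CD45, had 55.4 to 842 CPM on the brush with a median of 172 CPM, and 42.7 to 79.3 CPM in aorta (log2 fold change 2.48, adjusted p = 0.403). CSF3R, the receptor of the neutrophil growth factor, had 1.21 to 233 CPM on the brush and 1.89 to 11.14 CPM in aorta (3.88, adjusted p = 0.419). Both genes overlapped between the groups.

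The sums of fat and nerve markers lay on the other side. The summed level of 8 adipocyte genes was 37.2 to 248 CPM on the brush and 268 to 359 CPM in aorta, and that of 12 Schwann cell and nerve genes was 325 to 402.5 CPM on the brush and 442 to 503 CPM in aorta, without overlap in either list. Their medians were -0.44 and -0.52, with 0 adipocyte and 1 nerve gene lower at an unadjusted p under 0.05. DESeq2 called 0 and voom 1 in each list. The separation of the adipocyte sums leans on 1 gene, the fat droplet gene PLIN4. PLIN4 had 0 to 113.3 CPM on the brush and 91.4 to 250.5 CPM in aorta, with overlap. It gave 250.5 of the 358.7 CPM in aorta 4 and 32.1 of the 248.3 CPM in microbrush 10. Without PLIN4 the order of these libraries reverses. The sums therefore do not show that fat markers as a class were lower on the brush. Kidney tubule and podocyte genes, of the organ around the other brushed arteries, summed to 144 to 311 CPM on the brush and 297 to 435 CPM in aorta, with 0 of 11 at an unadjusted p under 0.05 and a median of -0.50 (DESeq2 called 0 and voom 1).

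The remaining lists had medians of 0.33 for 14 arterial endothelial genes (1 higher and 1 lower at an unadjusted p under 0.05), 0.04 for 16 flow and haemostasis genes (2 higher) and 0.54 for 11 endothelial activation genes (3 higher and 1 lower). At that p, 4.69% of all genes were higher and 2.37% lower. In these 3 lists DESeq2 called 1 lower, 1 higher and 1 lower, and voom 1 lower, 2 higher and 4 lower, and the 3 medians were negative by voom. Pericyte genes had a median of -0.06 (1 of 15 higher at an unadjusted p under 0.05), skeletal and cardiac muscle genes -0.50 (0 of 9), proliferation genes -0.04 (0 of 14) and HOX genes, which mark position along the body, -0.26 (0 of 26), and DESeq2 and voom called 0 in each of these 4. Over all alternatives, the medians of 16 of the 30 lists changed sign at least once, and 14 kept it, among them the glucocorticoid-responsive, core endothelial, platelet, interferon, immediate early and mitochondrial lists.

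Responses to handling and to cytokines were read from 4 lists. Interferon response genes had positive fold changes in 21 of 22, with a median of 1.25 (0.74 without microbrush 6). By edgeR 0 passed and 9 were higher at an unadjusted p under 0.05, while DESeq2 called 3 higher and voom 1 in each direction. IFIT1, an inhibitor of viral RNA translation, had 59.2 to 941.5 CPM on the brush and 27.9 to 45.1 CPM in aorta, without overlap (2.79, adjusted p = 0.364). In blood it was at 3434 and 1079 CPM. IRF7, a transcription factor of the interferon response, had 1.88 to 240.2 CPM on the brush and 0 to 5.41 CPM in aorta (4.18, adjusted p = 0.385), and ISG15, a ubiquitin-like protein, 22.3 to 325 CPM on the brush and 18.5 to 37.4 CPM in aorta (2.26, adjusted p = 0.422). The median of 24 immediate early genes was 1.10, with 0 called by edgeR, 5 higher at an unadjusted p under 0.05, 2 called higher by DESeq2 and 7 by voom. ATF3, a stress-induced transcription factor, had 9.32 to 415 CPM on the brush and 8.98 to 17.0 CPM in aorta (2.77, adjusted p = 0.439). CCN1, a secreted matrix regulator, had 32.2 to 766.5 CPM on the brush and 31.7 to 47.9 CPM in aorta (2.48, adjusted p = 0.49), and the AP-1 subunit FOSB 0 to 91.4 CPM on the brush and 0.56 to 5.20 CPM in aorta (3.54, adjusted p = 0.558).

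Heat shock genes had a median of 0.80 over 13 genes, with 0 called by edgeR, DESeq2 or voom and 1 higher at an unadjusted p under 0.05. Hypoxia genes had a median of 0.17 over 17 genes, with 0 called by edgeR and 4 at an unadjusted p under 0.05. DESeq2 called 2 of them higher and 1 lower, and voom 1 higher and 2 lower. PFKFB3, a regulator of glycolysis, had all brushes below aorta (33.8 to 71.5 CPM on the brush and 98.9 to 198 CPM in aorta; -1.51, SE 0.31, adjusted p = 0.0718). ALDOA, a glycolytic enzyme, had them above (147 to 8725 CPM on the brush and 85.5 to 140 CPM in aorta; 3.79, adjusted p = 0.484).

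All 13 genes encoded by the mitochondrial genome had negative fold changes, with a median of -1.11, 0 called by edgeR, DESeq2 or voom and 1 at an unadjusted p under 0.05. Their sum was 8499 to 58200 CPM on the brush and 50580 to 63310 CPM in aorta, and microbrush 7 alone reached the aorta range. These 13 genes sit on 1 molecule and are not independent.

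**Figure D5:**
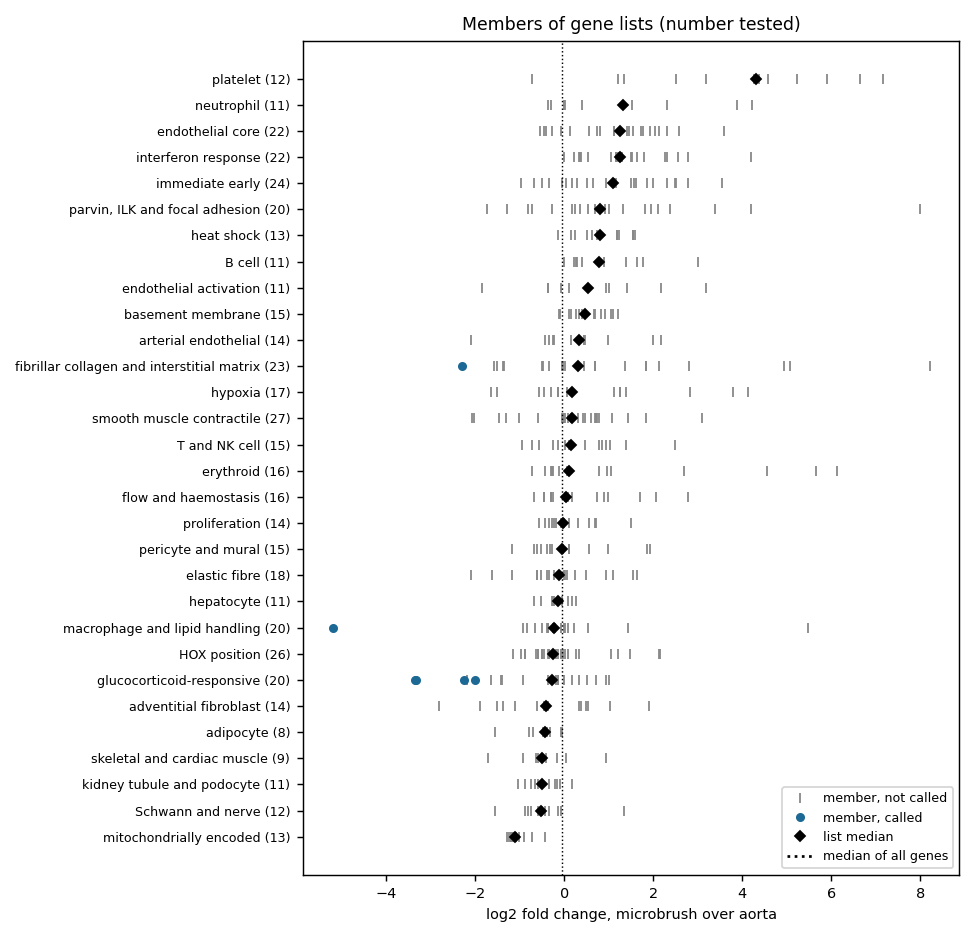
Each tick is the log2 fold change (microbrush over aorta) of 1 gene in 30 lists, with called genes as blue points, list medians as diamonds and the median of all genes as a dotted line. Called members appear in 3 lists, glucocorticoid-responsive (4 genes), macrophage and lipid handling (APOE) and collagen and matrix (VCAN), all on the lower side.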

How the data were processed

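RNA was extracted with a tissue kit at reduced volumes and libraries were made with SMARTer Pico, per the labels' protocols. The authors deposited a table of expected counts per gene for all 21 samples, and Salmon, DESeq2 and the Sscrofa 11.1 build are named in the submitters' processing notes. The strand setting and the settings of these tools are not given in the sources used here. The table holds 24358 gene identifiers, of which 14692 have a symbol in a gene name table. Of its values 11.9% were not whole, and they were rounded. Every column of values was matched to a sample by its title.

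Genes with low counts were removed by edgeR's filterByExpr with a minimum count of 10, and libraries were scaled with TMM. The 9 brush and 4 aorta libraries were fitted with edgeR's quasi-likelihood test (robust), with Benjamini-Hochberg adjustment over all 16769 genes, and every adjusted p in the text is from that fit unless another is named. Fold changes are microbrush over aorta. Levels are CPM (counts per 1000000) on the scale of this fit, and wires, blood libraries and microbrush 4 were placed on the same scale. A second blood library of pig 243K, with 5633 counts, was left out. No 2 libraries of a group were copies, since the lowest chi-square per degree of freedom between such a pair was 5.905. Counting intervals and floors of 3 counts cover counting error only. The fit was tested on simulated data.

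Genes were named from a pool made up of PARVB, HBB, APOE, ZBTB16 and CEBPD, per direction up to 12 called genes with a symbol and a mean of at least 10 CPM, called members of lists, and in each of 31 lists (619 entries) the 3 members with the smallest p. Not every gene of this pool is reported here, and lists described only by counts and sums have few or none named. Other genes named (list members such as MYH11, ACTA2, ELN, CDH5, COL1A1, TREM2, DUSP1 and ALAS2, further matrix, parvin and red cell genes, and unnamed identifiers) were chosen after their values were seen. The members and lists were chosen with earlier results of these data known. Alternatives were RLE scaling, other filters and thresholds, DESeq2, limma with voom, a common fit of 19 libraries, each pig or organ alone, and libraries left out. Leaving out each brush library in turn, leaving out the 3 with the fewest genes and the log10 haemoglobin share were chosen after seeing the data. Tools were R 4.3.3, edgeR 4.0.16, limma 3.58.1, DESeq2 1.42.0, vegan 2.7.1 and matplotlib 3.10.9.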

Additional observations from a re-analysis of the deposited data

Results flagged for a closer look

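Within the groups of 9 brush and 4 aorta libraries, 1 library stood apart from the rest in 24 of 250 groups of values checked, 10 of microbrush and 14 of aorta. The rule used flags about 1 group in 20 when values are independent and normally distributed. The groups here share the same 13 libraries and some hold mostly zeros, so the 24 flags cannot be read against that rate. Values are log2(CPM + 1) unless named.

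In the brush libraries, microbrush 6 was low at 0 for the matrix gene EFEMP1, the Wnt inhibitor SFRP2 and the fat droplet gene PLIN4. Microbrush 9 was low for the T cell gene CD3E (1.447), the B cell gene CD79B (0) and the myelin gene MBP (1.143), and microbrush 5 for the mitotic kinase AURKB (0). Microbrush 6 was high for the endothelial cadherin CDH5 (7.726). Microbrush 2 was high for ENSSSCG00000035241 (0.487), and microbrush 1 for the haemoglobin share (0.328% of counts).

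In the aorta libraries, aorta 4 was high for the chemokine CCL2 (3.68), the integrin ITGA8 (10.99), smooth muscle actin, ACTA2 (12.193), the receptor NOTCH3 (7.802), the B cell gene BANK1 (2.257), the adhesion gene NCAM1 (7.613) and the chaperone DNAJB4 (5.278). It was low for CD79B (1.939) and for genes detected at 1000000 counts (18593.9). Aorta 1 was high for FOXS1 (6.068) and low for IFIT1 (4.856), and aorta 3 was high for desmin, DES (6.678). Aorta 2 was high for KDM5D (0.331) and aorta 3 for ENSSSCG00000026430 (0.639), each on the strength of 1 count.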

How the results depend on the processing

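No paired analysis was possible because the labels give the libraries no replicate numbers and brush and aorta share no pig. The 36 called genes became 13 at an adjusted p under 0.01, 17 when tested against a 2-fold change, 338 with DESeq2, 656 with voom, 21 with microbrush 4 included, 22 in the common fit of 19 libraries and 227 without the 3 brush libraries with the fewest genes. They became 3 with pig 243K alone, 134 with pig 248K alone, 88 with kidney brushes alone and 3 with liver brushes alone. Leaving out 1 library gave 17 (without aorta 1 or aorta 4) to 64 (without microbrush 6). Of the 36 genes, 13 were called in every run with 1 library left out, and 1, ENSSSCG00000026430, under every alternative. The cause was not tested. The haemoglobin difference passed on the log10 scale (1.589), with microbrush 4 included (0.1117), and with brushes of pig 243K (0.08177), pig 248K (0.1125), kidney (0.1435) or liver (0.03532) alone, and ran from 0.06664 to 0.106 percentage points with 1 library left out. It missed the threshold for HBB alone and without any 1 of the aorta libraries. The difference in genes detected at fixed depth missed the threshold under all 19 alternatives. Log2 fold changes of genes not called changed sign as follows. By voom they were -0.154 for SEMA3G, -0.462 for COL4A5, -0.393 for APOA1 and -0.809 for HOXD4. With pig 248K alone they were -0.089 for NID2, 0.005 for SERPINA1, -0.583 for APOA1 and 0.011 for LRP2. With kidney brushes alone it was -0.13 for APOA1. Without the 3 brush libraries with the fewest genes they were -0.183 for NID2, 0.107 for SERPINA1, -0.335 for APOA1 and 0.045 for LRP2. The median of all genes was -0.24 with liver brushes alone, -0.17 with microbrush 4 included, -0.14 with pig 243K alone and 0.09 without the 3 brush libraries with the fewest genes, against -0.04. The wide spread between brush libraries and the single aorta donor limit what these counts show.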
